A study of Danio rerio with 18 samples.

Results

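The 5 hpf libraries compared zebrafish embryos injected with a type III CRISPR complex, StCsm(EGFP), with embryos injected with buffer alone (mock), at the late blastula stage, when the embryo has switched on its own genome. They were all libraries whose labels give the 5 hpf stage, 6 of the 18 in the series, 3 per injection. The Csm embryos received 0.7 ng of the D16A-StCsm(EGFP) complex, a variant whose Cas10 subunit lacks DNase activity, in 1 nl into the yolk at the 1-cell stage. The mock embryos received the same volume of Tris storage buffer without complex or crRNA. Embryos of both groups came from Tg(ddx4:ddx4-EGFP) females in the ABTL strain, crossed with casper males. The injections were repeated on 3 occasions, called batches 1, 2 and 3. Each batch mixed the embryos of 3 crosses and split them at random over both injections, and each library was made from 25 whole embryos. The ddx4 promoter drives the transgene in the mother's germ line, so the fusion transcript of ddx4 and EGFP comes to the embryo with the egg, and both homozygous and heterozygous fish were used. The comparison asked which transcripts besides the target differed between the injections, and whether the 3 batches showed the same differences.

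Early zebrafish development runs on mRNA that the mother stores in the egg. At the mid-blastula transition most of these mRNAs are degraded while the embryo transcribes its own genes. By late blastula the first patterning signals are active, among them BMP ventrally, Nodal and FGF at the margin, Wnt, and those of the dorsal organizer. A bulk library of whole embryos mixes all cells, so that fewer cells of a type and less RNA per cell cannot be told apart. The Csm complex is guided by the spacer of its crRNA to a matching RNA, which its Csm3 subunits cut at regular intervals. Of the genes counted, only EGFP holds the intended match, although DDX4 reads can come from the same fusion transcript. The spacer and its target are shown for this reason. They are given 5′ to 3′, with the 32 bases that pair in capitals and 10 bases of the EGFP transcript on each side of the target in lower case, and all 32 bases of the spacer were complementary to the target.
spacer: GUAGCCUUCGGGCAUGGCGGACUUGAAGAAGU
target: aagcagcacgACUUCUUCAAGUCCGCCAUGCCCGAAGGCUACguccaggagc

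Gene counts summed to 12034028 to 15448344 reads in the 6 libraries. MT-CO1, encoded in the mitochondrial genome, took 2.17% to 6.11% of them. Replicates of a group differed by more than sampling noise in all 6 pairs (chi-square per degree of freedom 13.4 to 99.96). Levels are given as CPM, read counts divided by the TMM-scaled library size, and differences as log2 fold changes of Csm over mock. Markers of the stage were present. The 8 enveloping layer markers summed to 12723 to 14004 CPM in Csm libraries and 10932 to 16400 CPM in mock libraries, and the 5 mesendoderm and organizer markers to 862 to 988 CPM in Csm libraries and 782 to 1040 CPM in mock libraries. Markers of later tissues were low, with 0.154 to 1.07 CPM in Csm and 0.141 to 0.461 CPM in mock libraries over 9 globin gene identifiers. The 4 neuron marker identifiers summed to 13.7 to 15.7 CPM in Csm and 10.8 to 13.1 CPM in mock libraries. Of the 7 marker lists, that of neurons and that of germ cells, described next with DDX4, had groups that did not overlap. Over all genes tested, 1.6% did not overlap with Csm higher and 1.85% with Csm lower. ELAVL3, a neuron marker described below, was higher in every Csm library than in any mock library. The wider list of 8 neuron genes tested had 4 positive and 4 negative log2 fold changes.

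EGFP, the target, had 56.6, 103 and 74.4 CPM in the Csm libraries of batches 1, 2 and 3, against 102, 133 and 104 CPM in the mock libraries. It was lower after Csm injection within every batch, although the Csm library of batch 2 reached the level of the mock library of batch 1. The log2 fold change was -0.57 ± 0.19 (SE, n = 3 per group), with an unadjusted p of 0.0144 and an adjusted p of 0.99997 over 15819 genes (quasi-likelihood F-test of edgeR, Benjamini-Hochberg correction). An exact two-sided sign-flip permutation of the 3 within-batch log2 ratios (-0.84, -0.37 and -0.48) gave p = 0.25, which is the smallest value that 3 batches allow. DDX4, which encodes the germ cell helicase Vasa, had 415, 377 and 317 CPM in Csm libraries, against 559, 567 and 486 CPM in mock libraries. All 3 Csm libraries lay below all 3 mock libraries. Its log2 fold change was -0.54 ± 0.20 (SE, n = 3 per group; unadjusted p = 0.021 and adjusted p = 0.99997 in edgeR), and its within-batch log2 ratios were -0.43, -0.59 and -0.62.

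The transgene carries ddx4 sequence beside EGFP, and the DDX4 count cannot tell reads of the fusion transcript from reads of the endogenous gene. Loss of the fusion transcript can lower both counts together, so their ratio cannot show how far EGFP was lost. EGFP had 13.7, 27.2 and 23.4 reads per 100 DDX4 reads in the Csm libraries and 18.2, 23.4 and 21.4 in the mock libraries. This ratio was lower after Csm injection in batch 1 and higher in batches 2 and 3. Its mean within-batch log2 difference was -0.02 ± 0.34 (SD, n = 3; exact two-sided sign-flip p = 1). At the 128-cell stage the ratio was 34.1, 60.2 and 30.8 in Csm libraries and 37.8, 52.8 and 41.2 in mock libraries, with a mean log2 difference of -0.13 ± 0.30 (SD, n = 3; exact p = 0.75). The EGFP log2 fold change at the 128-cell stage was -0.44 ± 0.08 (SE, n = 3 per group; adjusted p = 0.0186 in edgeR) and that of DDX4 -0.31 ± 0.07 (adjusted p = 0.0393).

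**Figure D1:**
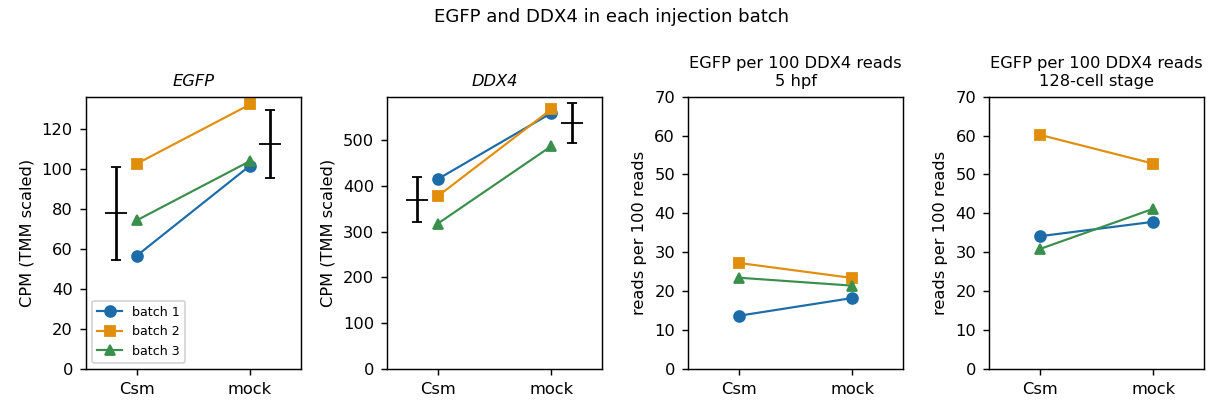
EGFP and DDX4 in CPM in the Csm and mock libraries at 5 hpf, and EGFP reads per 100 DDX4 reads at 5 hpf and at the 128-cell stage, with 1 line per batch; black bars show mean ± SD (n = 3). Both transcripts are lower after Csm injection in every batch, DDX4 without overlap between the groups, while their ratio at 5 hpf is lower in batch 1 and higher in batches 2 and 3.

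The germ plasm holds further maternal RNAs and proteins that specify the germ cells. Of 29 germ plasm genes tested, DDX4 was the only one with an unadjusted p under 0.05, 2 were lower and 2 higher in all 3 batches, and the median log2 fold change was -0.05. Over all tested genes 7.55% were higher and 7.53% lower in all 3 batches, with a median of -0.01. DND1, which protects germ cell mRNAs from miRNAs, had 13.7, 20.9 and 14.1 CPM in Csm and 17.4, 16.6 and 14.1 CPM in mock libraries. TDRD1, a Tudor protein of the germ granule, had 13.3, 14.4 and 10.1 CPM in Csm libraries, against 13.4, 17.8 and 34.9 CPM in mock libraries, so that its log2 fold change of -0.70 ± 0.35 (unadjusted p = 0.0737 in edgeR) rested on batch 3. The 4 germ cell markers together gave 354 to 456 CPM in Csm and 531 to 610 CPM in mock libraries, and DDX4 made up most of these sums.

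Across all genes, 0 of 15819 (0%) passed an adjusted p of 0.1 at 5 hpf in edgeR's test, and the smallest adjusted p was 0.99997. At an unadjusted p under 0.05 there were 131 genes, of which 89 (0.563% of those tested) had higher and 42 (0.266%) lower levels after Csm injection. Together they are a smaller share of the genes than the 0.05 that this threshold passes when nothing differs. limma-voom also called 0 genes, and both DESeq2 tests called 2, rps27l and RNF14, both higher after Csm injection. In edgeR, 0 genes were called without batch 1, 22 without batch 2 (15 higher and 7 lower) and 7 without batch 3 (all higher). Among both the 22 and the 7 were rps27l, RNF14, PHLDA3 and isg15. Both of these fits hold the libraries of batch 1. Without batch 1, the log2 fold changes of these genes were 1.28, 1.16, 0.93 and 0.78, in the same order. For 253 genes (1.6%) all 3 Csm libraries lay above all 3 mock libraries, and for 292 (1.85%) all 3 lay below. The genes named next have the smallest unadjusted p among those with the same direction in all 3 batches, so that their values describe the top of a ranking in which no gene was called.

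Among the genes with higher levels after Csm injection, rps27l came first. It encodes a protein closely related to ribosomal protein S27. It had 183, 225 and 135 CPM in the Csm libraries of batches 1, 2 and 3, against 69.4, 74.3 and 68.9 CPM in the mock libraries, so that every Csm library lay well above a narrow mock range. Its log2 fold change was 1.32 ± 0.20 (SE, n = 3 per group; unadjusted p = 7.34e-05 and adjusted p = 0.99997 in edgeR). RNF14 (ENSDARG00000078683; the symbol is shared by 3 gene identifiers), a ubiquitin ligase, had 23.2, 36.1 and 36.7 CPM in Csm and 7.53, 13.4 and 19.7 CPM in mock libraries. Another tested identifier with this symbol, ENSDARG00000043905, had 26.9, 20.4 and 19.7 CPM in Csm and 27.1, 20.1 and 24.7 CPM in mock libraries, so that only ENSDARG00000078683 stood apart. The log2 fold change of RNF14 (ENSDARG00000078683) was 1.31 ± 0.24 (unadjusted p = 0.000341).

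The next genes in this direction included regulators of cell death and survival and several secreted factors. bbc3, which encodes the pro-apoptotic protein Puma, had 7.64, 18.5 and 14.6 CPM in Csm and 2.92, 7.77 and 7.94 CPM in mock libraries. PHLDA3, an inhibitor of Akt signalling, had 31.4, 61.4 and 26.2 CPM in Csm and 9.91, 22.7 and 19.7 CPM in mock libraries. The ratio of PHLDA3 was large in batches 1 and 2 (log2 1.65 and 1.43) and small in batch 3 (0.41). The ubiquitin-like protein gene isg15 had 19.3, 21.6 and 20.7 CPM in Csm and 3.30, 10.3 and 14.8 CPM in mock libraries. Its Csm values were nearly level while its mock values differed between batches, and its log2 fold change was 1.31 ± 0.37 (unadjusted p = 0.00595). metrnlb, which encodes a meteorin-like secreted protein, had 5.94, 12.6 and 7.35 CPM in Csm and 2.38, 4.20 and 3.16 CPM in mock libraries. csf1a, a ligand of the Csf1 receptor, had 6.10, 8.24 and 4.40 CPM in Csm and 1.92, 3.09 and 3.02 CPM in mock libraries. cxcl12b, a chemokine, had 19.2, 25.5 and 21.9 CPM in Csm and 8.14, 18.4 and 13.98 CPM in mock libraries. In PHLDA3, isg15, metrnlb, csf1a and cxcl12b the groups did not overlap, and in bbc3 they did. The other 4 were the anion exchanger gene SLC4A2, the transcription factor gene foxo3b, the ubiquitin ligase gene LNX1 and the proteoglycan gene prg4a, with log2 fold changes of 1.08, 0.91, 0.92 and 1.22. Of these, only prg4a had overlapping groups. It was also low, with 2.78, 4.20 and 0.754 CPM in Csm and 0.922, 1.59 and 0.562 CPM in mock libraries.

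The 12 genes with lower levels after Csm injection included EGFP and DDX4, and the rest had regulators of early patterning among them. szl encodes Sizzled, a feedback inhibitor of the BMP pathway that blocks the proteases that cleave Chordin. It had 26.9, 48.5 and 30.0 CPM in Csm libraries, against 50.1, 58.6 and 61.4 CPM in mock libraries, with a log2 fold change of -0.73 ± 0.22 (SE, n = 3 per group; unadjusted p = 0.00818 in edgeR). apela encodes a peptide ligand of the apelin receptors that guides mesendodermal cell movement, and it had 84.3, 72.4 and 105 CPM in Csm libraries, against 139, 142 and 126 CPM in mock libraries (log2 fold change -0.65 ± 0.20; unadjusted p = 0.00947). In neither gene did the groups overlap, and szl was called without batch 2 (log2 fold change -0.93, adjusted p = 0.0584 in edgeR). The homeobox genes msx3 and msx1a were at low levels. msx3 had 0.695, 2.595 and 3.02 CPM in Csm and 2.304, 9.91 and 3.23 CPM in mock libraries, and msx1a had 1.08, 1.07 and 0.754 CPM in Csm and 3.00, 1.43 and 1.69 CPM in mock libraries. pck2, the mitochondrial phosphoenolpyruvate carboxykinase gene, had 31.4, 56.8 and 23.6 CPM in Csm and 58.7, 69.3 and 36.2 CPM in mock libraries. The zinc finger gene znf1147, the transglutaminase gene TGM2, the serpin gene SERPINI1, tmem200b and the kinase gene dclk2a had log2 fold changes of -0.80, -0.83, -0.94, -1.31 and -1.16. tmem200b had only 0.386, 0.687 and 0.942 CPM in Csm and 0.998, 1.27 and 2.88 CPM in mock libraries. dclk2a had 0.386, 0.916 and 0.565 CPM in Csm and 0.461, 1.98 and 1.90 CPM in mock libraries, and was not tested without batch 2. Genes this low can pass the filter on low counts through the group where they are higher. TGM2 differed between batches more than between injections, with 13.9, 16.8 and 1.13 CPM in Csm and 40.2, 21.8 and 1.48 CPM in mock libraries.

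**Figure D2:**
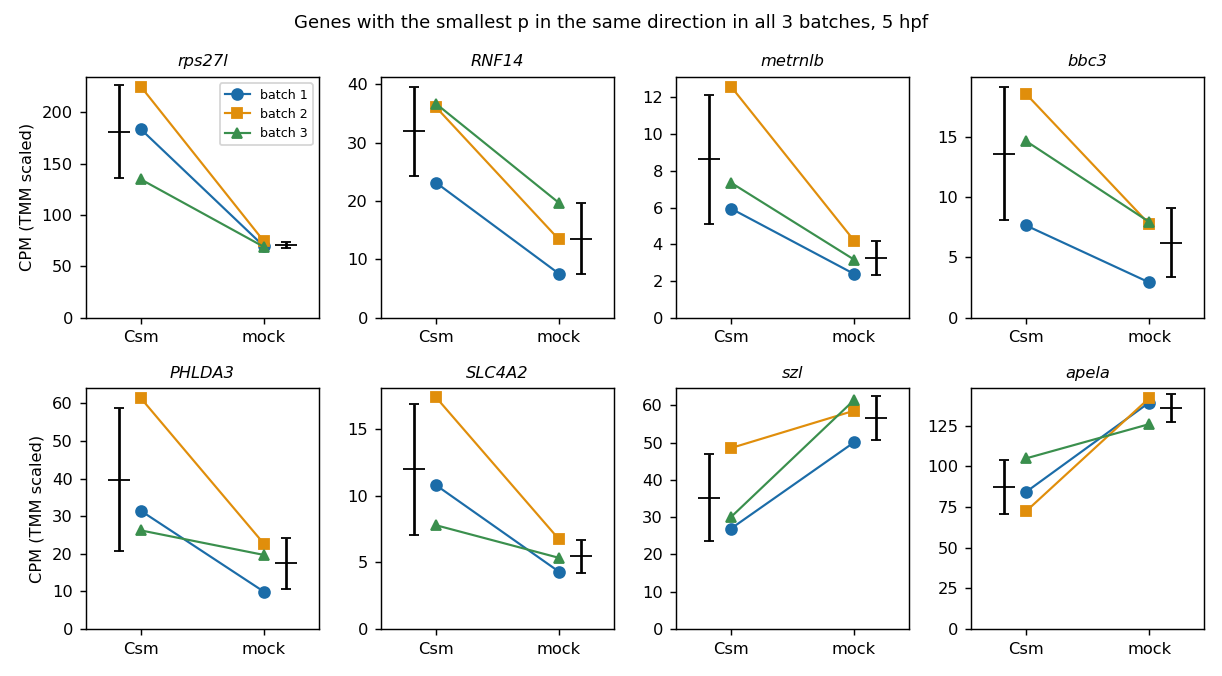
CPM of the 6 genes with the smallest p among those higher, and 2 of those lower, after Csm injection in all 3 batches, with 1 line per batch and mean ± SD (n = 3) in black. rps27l has 135 to 225 CPM in Csm libraries and 68.9 to 74.3 CPM in mock libraries.

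Further genes of growth arrest, DNA repair and apoptosis, named after their values were seen, differed among themselves. mdm2, a ubiquitin ligase gene, had 136, 118 and 112 CPM in Csm libraries, against 92.9, 80.8 and 97.2 CPM in mock libraries, without overlap (log2 fold change 0.43 ± 0.18, unadjusted p = 0.043). The stress-induced sesn3 had 309.7, 468 and 466 CPM in Csm and 221, 338 and 243 CPM in mock libraries, and its ratio was largest in batch 3 (log2 0.94, against 0.49 and 0.47 in batches 1 and 2). cdkn1a, the cell cycle inhibitor p21, had 3.86, 4.58 and 5.59 CPM in Csm and 1.46, 3.41 and 6.18 CPM in mock libraries. casp8, an initiator caspase gene, had 27.8, 31.4 and 19.9 CPM in Csm and 15.2, 15.5 and 28.6 CPM in mock libraries. Both were higher after Csm injection in batches 1 and 2 and lower in batch 3. CCNG1, which encodes cyclin G, had 1629.5, 2013 and 2151 CPM in Csm and 1296, 1769 and 1633 CPM in mock libraries, and was higher within each batch although the groups overlapped. DDB2, a DNA damage sensor, was slightly lower in all 3 batches, with a log2 fold change of -0.11 ± 0.23 (unadjusted p = 0.635).

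Stress and chaperone genes gave no called gene in the main analysis. Heat shock proteins help other proteins fold. Of 52 chaperone genes, 4 (7.69%) had an unadjusted p under 0.05, all higher after Csm injection, against 0.563% higher over all genes tested. The list median was 0.08. hsp70.3 had 3.16, 7.10 and 1.13 CPM in Csm and 1.69, 0.476 and 1.05 CPM in mock libraries. hsp70l had 4.32, 4.27 and 0.565 CPM in Csm and 1.61, 0.555 and 0.773 CPM in mock libraries. HSP90AA1, which did not reach this p (0.0737 in edgeR), had 25.4, 31.4 and 4.84 CPM in Csm and 8.76, 2.46 and 8.99 CPM in mock libraries. In edgeR it was called without a filter on low counts (adjusted p = 0.0541) and without batch 3 (adjusted p = 0.077). These 3 heat shock genes were higher after Csm injection in batches 1 and 2, and in batch 3 they had log2 ratios of 0.09, -0.37 and -0.87. Besides hsp70.3 and hsp70l, the 4 genes held 2 SERPINH1 (collagen chaperone) genes, of which neither was higher in all 3 batches. Of 42 immediate early and stress genes tested, out of 53, 7 (16.7%) were higher and 0 lower in all 3 batches. Over all genes tested these shares were 7.55% and 7.53%. The median of the 42 genes was 0.05, with batch medians of -0.02, 0.16 and 0.06. HMOX1, the haem-degrading enzyme gene, was the only one with an unadjusted p under 0.05 in edgeR. It had 1.62, 1.76 and 1.82 CPM in Csm and 0.691, 1.19 and 0.984 CPM in mock libraries. Genes as low as HMOX1 can pass the filter on low counts through the group where they are higher. Of 16 tested genes that sense foreign RNA or answer interferon, 1 (6.25%) was higher (isg15) and 3 (18.8%) lower in all 3 batches. The median of these genes was -0.02. adar, the RNA-editing deaminase gene, had 120.4, 124 and 153 CPM in Csm and 116, 129 and 125 CPM in mock libraries, and trim25, a ligase that activates the RNA sensor RIG-I in mammals, had 2.16, 3.21 and 3.46 CPM in Csm and 3.46, 4.36 and 5.34 CPM in mock libraries.

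The patterning lists had medians near 0 in the fit over the batches, and their batches lay on both sides of it. Of 28 ventralising BMP pathway genes, 2 (7.14%) were higher and 5 (17.9%) lower in all 3 batches. Over all genes tested these shares were 7.55% and 7.53%. The BMP list had a median of -0.11 and batch medians of -0.32, -0.25 and 0.15. Besides szl, the lowest p was that of eve1, a ventral homeobox gene, with 64.7, 93.2 and 100.3 CPM in Csm and 108, 138 and 103 CPM in mock libraries (log2 fold change -0.45 ± 0.20, unadjusted p = 0.0523). The ligand gene BMP4 had 33.8, 47.0 and 59.6 CPM in Csm and 39.0, 76.7 and 58.3 CPM in mock libraries, lower after Csm injection in batches 1 and 2 only. The Nodal and mesendoderm list (42 genes) had a median of -0.05, the dorsal organizer list (25) 0.03, the Wnt list (37) -0.02, the FGF list (28) 0.12 and the Notch list (25) 0.09. In these 5 lists only apela had an unadjusted p under 0.05. chrd, the BMP antagonist of the organizer, had 203, 179.5 and 173 CPM in Csm and 246, 137 and 136 CPM in mock libraries. mixl1, a Nodal target, had 137, 139 and 216 CPM in Csm and 135, 210.3 and 141 CPM in mock libraries, with batch 2 and batch 3 in opposite directions. aplnrb, a receptor for the apela peptide, had 97.2, 118 and 86.9 CPM in Csm and 95.5, 59.8 and 67.1 CPM in mock libraries (log2 fold change 0.46 ± 0.22, unadjusted p = 0.0653).

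List medians in the fit over the batches ranged from -0.12 to 0.16, whereas the medians of batches 2 and 3 lay up to 1.60 apart within a list. Within each batch the log2 ratio of Csm over mock was taken for every gene, and batches share no library. Across 15819 genes, which are not independent replicates, Pearson's r of these ratios was -0.07 between batches 1 and 2, -0.03 between batches 1 and 3 and -0.37 between batches 2 and 3. Only 15.08% of the genes had the same direction in all 3 batches, and 11.7% of the 8227 genes with a mean of at least 10 CPM. Both shares are lower than independent random directions would give. At the 128-cell stage r was 0.20, 0.10 and 0.20 for the same pairs, and 42.0% of the genes had the same direction in all 3. The ratios at 5 hpf were also larger in batches 2 and 3 (root mean square 0.62 and 0.56 on the log2 scale) than in batch 1 (0.40). Of 37 lists, 26 had medians of opposite sign in batches 1 and 2, and 22 in batches 2 and 3. The skeletal muscle list, of which 33 of 67 genes passed the filter on low counts, was the only 1 with the same sign in all 3.

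Genes of the cytosolic ribosome were among those with a wide split. Their 82 tested members had a median log2 fold change of 0.15, with median ratios of -0.18, 0.99 and -0.38 in batches 1, 2 and 3. In all 3 batches 1 of 82 (1.22%) was higher and 0 lower, against 7.55% and 7.53% over all genes tested. RPL4 had 1825, 1646 and 1104 CPM in Csm and 1938, 969 and 1284 CPM in mock libraries. The 13 protein-coding genes of the mitochondrial genome did likewise, with a median of 0.07 and batch medians of -0.21, 1.05 and -0.55. MT-CO1 had 54755, 52886 and 21093 CPM in Csm and 67359, 24855 and 31484 CPM in mock libraries. The high libraries were thus both of batch 1 and the Csm library of batch 2. Zinc finger genes of the znf1000 series, a large family expressed around genome activation in the zebrafish embryo, leaned the other way, with batch medians of 0.14, -0.62 and 0.61 over 146 genes. znf1035 had 130.3, 162 and 290.0 CPM in Csm and 132, 324 and 198 CPM in mock libraries. The chromatin protein gene hmga1a had 4625, 6346 and 9646 CPM in Csm and 5305, 9478 and 5966 CPM in mock libraries. Both genes had their highest levels in the Csm library of batch 3 and the mock library of batch 2. UHRF1, which maintains DNA methylation, reached 1039.5 CPM in the mock library of batch 2 and 700.4 CPM in the Csm library of batch 3, against 304 to 535 CPM in the other 4.

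**Figure D3:**
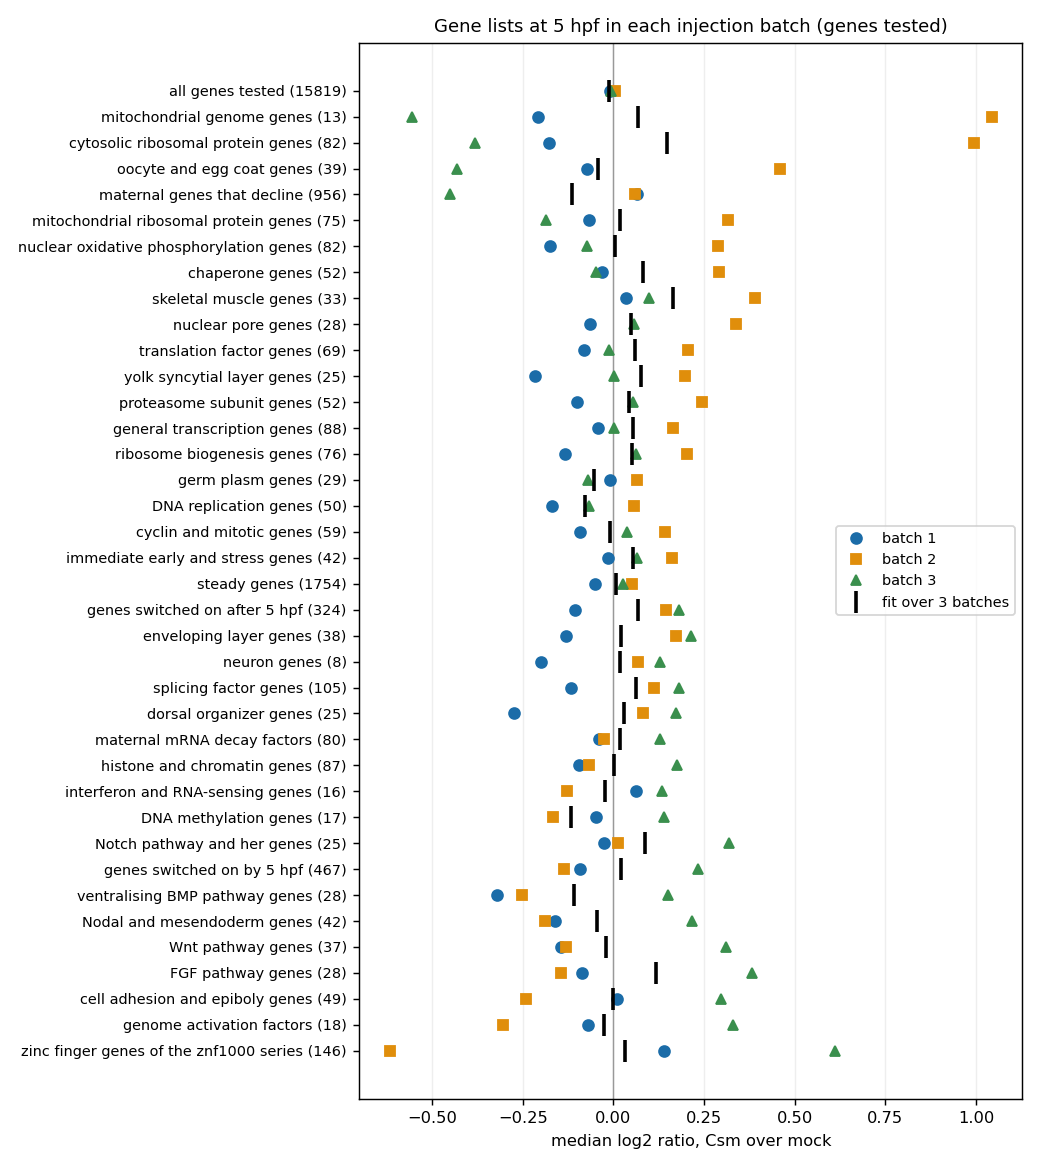
Median log2 ratio of Csm over mock for each gene list in batches 1, 2 and 3 (coloured symbols) and in the fit over the batches (black), with the number of genes tested in brackets, ordered by the difference between batches 2 and 3. Batches 2 and 3 lie on opposite sides of 0 for 22 of 37 lists, with the ribosomal protein and mitochondrial genome lists at one end and the znf1000 series at the other.

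The same order of libraries ran through the first principal component of the 6 libraries, which held 53.8% of the variance. Csm libraries of batches 1, 2 and 3 lay at -43.0, -4.81 and 37.9, and mock libraries at -46.7, 55.0 and 1.69. Both batch 1 libraries lay together at one end, and in batches 2 and 3 the Csm and mock libraries lay apart, in opposite directions. The mean deviation of the ribosomal protein genes from their 6-library average was 0.39, 0.29 and -0.45 in Csm and 0.57, -0.70 and -0.10 in mock libraries, on the log2 scale, which ranks the libraries in the reverse of their order on the component. The summed level of these 82 genes over the 6 libraries of a stage averaged 15908 CPM at the 128-cell stage, 49499 CPM at 5 hpf and 249739 CPM at 24 hpf, so that it increased with stage. That of the znf1000 series was 763, 1509 and 544 CPM, with its highest value at 5 hpf. The cause of this order was not tested.

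**Figure D4:**
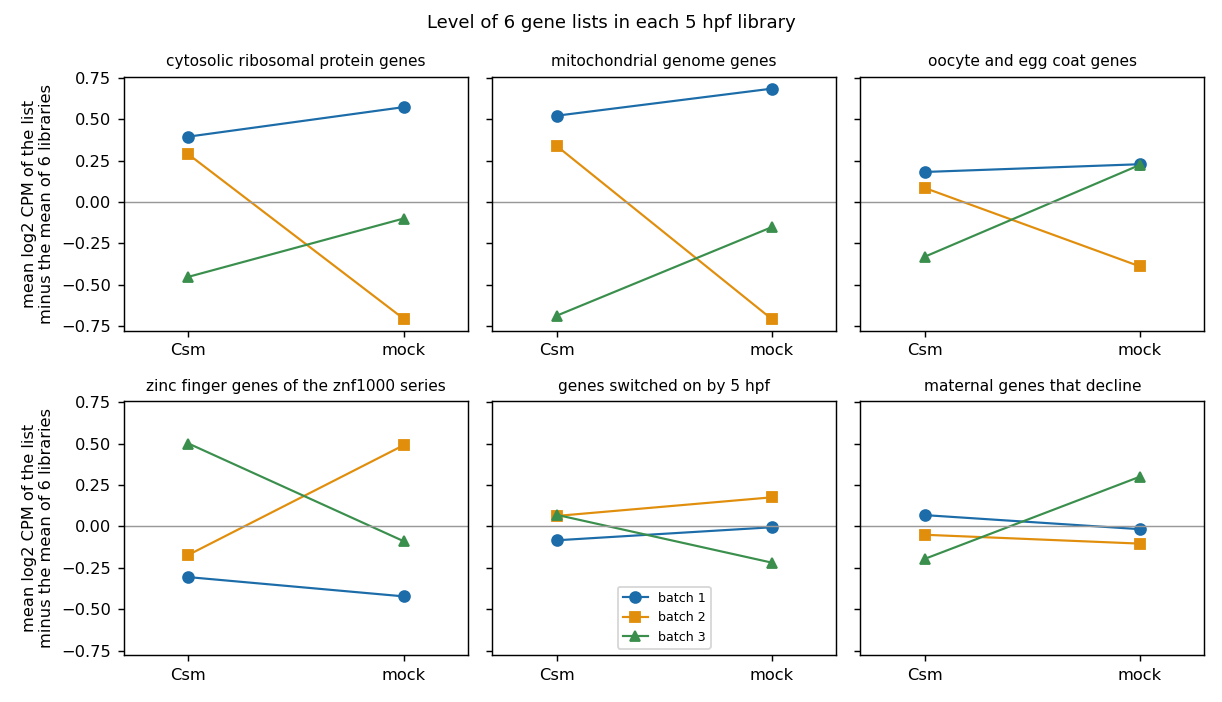
Mean log2 CPM of 6 gene lists in each 5 hpf library, relative to the mean of the 6 libraries, with 1 line per batch. The lines of batches 2 and 3 cross for the ribosomal protein, mitochondrial genome, oocyte and znf1000 lists, while the line of batch 1 is less steep in each of these lists.

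Genes grouped by their own course over the 3 stages were also split by batch. Maternal genes that decline were those with a mean of at least 10 CPM at the 128-cell stage and at most a 10th of that at 24 hpf. Of 956 tested, 22 were higher and 89 lower in all 3 batches, and the median was -0.11, with batch medians of 0.07, 0.06 and -0.45. In this list only batch 3 had a median below 0. Oocyte and egg coat genes (39) had batch medians of -0.07, 0.46 and -0.43. h1m, the maternal linker histone gene, had 647, 402 and 223 CPM in Csm and 590.1, 229 and 485 CPM in mock libraries. Genes switched on by 5 hpf (467; at most 0.5 CPM at the 128-cell stage and at least 10 CPM at 5 hpf) had a median of 0.02 and batch medians of -0.09, -0.14 and 0.23, with 44 higher and 20 lower in all 3 batches. Genes switched on after 5 hpf (324 tested of 993) had a median of 0.07, with 52 (16%) higher and 27 (8.33%) lower in all 3 batches. Over all genes tested these shares were 7.55% and 7.53%. This list holds only genes under 10 CPM at 5 hpf, and low genes can pass the filter through the group where they are higher. The 1754 steady genes, within 2-fold over the 3 stages, had a median of 0.01.

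Genes of basic cell functions and of later tissues gave few leads. Medians were 0.06 for splicing factors (105 genes), 0.06 for translation factors (69), 0.04 for proteasome subunits (52), 0.05 for ribosome biogenesis (76), 0.0045 for nuclear oxidative phosphorylation (82) and 0.02 for mitochondrial ribosomal proteins (75), and 0 of their members had an unadjusted p under 0.05. Of 50 DNA replication genes, 1 (2%) was higher and 6 (12%) lower in all 3 batches, against 7.55% and 7.53% over all genes tested. The list median was -0.08. MCM5, a subunit of the replicative helicase, had 204, 180.3 and 185 CPM in Csm and 263, 216 and 223 CPM in mock libraries, without overlap (log2 fold change -0.30 ± 0.18, unadjusted p = 0.136). ELAVL3, an early neuronal RNA-binding protein gene, had 6.56, 4.73 and 7.85 CPM in Csm and 2.92, 3.96 and 4.15 CPM in mock libraries (log2 fold change 0.78 ± 0.32, unadjusted p = 0.0348). Skeletal muscle genes (33 tested of 67) had a median of 0.16 and batch medians of 0.04, 0.39 and 0.10. Here too, low genes can pass the filter on low counts through the group where they are higher. HSPB1, a small heat shock protein gene, was the highest of the 33 tested, with 1061, 1327 and 1318 CPM in Csm and 1184, 1220 and 913 CPM in mock libraries. The 7 skeletal muscle markers summed to 8.95, 25.9 and 11.4 CPM in Csm libraries and to 13.8, 8.64 and 8.78 CPM in mock libraries. Genome activation factors (18) had a median of -0.02, maternal mRNA decay factors (80) 0.02, cyclin and mitotic genes (59) -0.0087, DNA methylation genes (17) -0.12, histone and chromatin genes (87) 0.0019, general transcription genes (88) 0.06, nuclear pore genes (28) 0.05, cell adhesion and epiboly genes (49) -0.001, enveloping layer genes (38) 0.02, yolk syncytial layer genes (25) 0.08 and neuron genes (8) 0.02. The globin and Hox lists had no member that passed the filter on low counts.

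Genes called at the 128-cell stage were followed to 5 hpf, where the libraries are other embryos of the same clutches. At the 128-cell stage 351 genes (2.26% of 15498) were higher and 432 (2.79%) lower after Csm injection in edgeR's test. At 5 hpf, 346 of the 351 could be tested, and their median log2 fold change was -0.14, with 47 (13.6%) above 0. Of the 432, 424 could be tested, with a median of 0.13 and 76 (17.9%) below 0. Over all 15819 genes tested at 5 hpf, 7558 (47.8%) were above 0 and 8261 below. The medians within batches were 0.06, -0.60 and 0.18 for the genes that were higher at the 128-cell stage, and -0.17, 0.86 and -0.27 for those that were lower. The medians of batches 1 and 3 thus had the sign of the earlier stage, and those of batch 2 the opposite sign. The ribosomal protein genes did the same, and 75 of them were called lower at the 128-cell stage (median of all 82 -0.38). The test of the difference between the stages called 0 of 17590 genes (0%) in edgeR, with 607 at an unadjusted p under 0.05. For rps27l the log2 fold change at the 128-cell stage was -0.29 (adjusted p = 0.199), and its difference between the stages had an unadjusted p of 1.87e-05 and an adjusted p of 0.233. DDX4 and EGFP, lower at both stages, had unadjusted p-values of 0.219 and 0.537 for the difference.

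The batches were also compared with each other over both injections. The batch term of the model called 56 genes (0.354% of 15819) in edgeR, with 1506 at an unadjusted p under 0.05. It called 180 in DESeq2's likelihood ratio test, 21 without batch 1, 2524 without batch 2 and 1034 without batch 3. The gene with the smallest p, named after its values were seen, was RRM2, a ribonucleotide reductase subunit gene, with 10.9, 147 and 13.3 CPM in Csm and 10.7, 213 and 15.7 CPM in mock libraries of batches 1, 2 and 3. Here both libraries of batch 2 stood apart together, unlike in the ribosomal and zinc finger lists, where the Csm and the mock library of batch 2 lay on opposite sides of the 6-library mean.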

How the data were processed

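Polyadenylated RNA was sequenced as paired-end reads. The submitters' processing notes name GRCz11, bcl2fastq 2.16.10, UMI-tools 1.0.0, cutadapt 2.4, STAR 2.7.2b, HTSeq 0.11.2, R 3.6.1 and DESeq2 1.24.0, without stating their roles. The authors deposited raw counts of reads per gene for each library, and these counts were the only input. Their normalized tables and the EGFP annotation were not used here. Special rows stayed out of library totals (no feature 15.0% to 16.9% of all counts, ambiguous 0.669% to 1.08%, several alignments 8.14% to 11.2%). Of 32521 gene identifiers, 29201 had a symbol, printed as the symbol table gives it. A symbol can stand on several paralogs.

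Counts were fitted with edgeR 4.0.16 in R 4.3.3 (quasi-likelihood test, TMM, filterByExpr with EGFP kept, robust dispersions, batch and injection in the model), with a Benjamini-Hochberg adjusted p threshold of 0.1. The fit was tested on simulated data, in which 200 of 15819 genes were given a known log2 difference. It called 0% of the 200 at a difference of 0.5, 33.5% at 1 and 93% at 2. It also called 1, 19 and 25 of the other genes. When no gene was given a difference, 4.47% had an unadjusted p under 0.05 in this fit. In the 5 hpf libraries, 131 of 15819 did. The shares called describe the simulated data only, and recovery of known differences in the libraries themselves was not tested. The estimated biological coefficient of variation was 0.242 at 5 hpf and 0.0764 at the 128-cell stage. The median absolute log2 fold change was 0.135 at both stages. The batch block follows the study, in which embryos of shared clutches were divided between the injections. Deviations from the group means correlated at 0.62, 0.07 and 0.03 between the Csm and mock libraries of batches 1, 2 and 3. Between libraries of different numbers they correlated at -0.66 to 0.56, the highest for Csm of batch 3 with mock of batch 2. By this correlation over all genes, libraries of the same number resembled each other in batch 1 only. Single genes could still match within the other batches, such as RRM2 in batch 2 and TGM2 in batch 3. Within-batch ratios used log2 CPM with a prior count of 2. Lists were described by counts and medians, without a set test. Named genes were EGFP and ddx4, the 12 genes per direction with the smallest p among those with 1 direction in all 3 batches, a mean of at least 1 CPM and an assigned symbol, and per list up to 2 members per direction and the member with the highest CPM. Genes outside this rule (among them mdm2, sesn3, cdkn1a, casp8, DDB2, BMP4, mixl1, DND1, hsp70l, HSP90AA1, SERPINH1, the second RNF14 identifier, h1m and RRM2) were chosen after their values were seen. Some results are not reported here. The members and lists were chosen with earlier results of these data known. Each batch was also left out in turn, and limma 3.58.1 (voom) and DESeq2 1.42.0 were alternatives. P-values measure the spread between these pools of embryos.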

Additional observations from a re-analysis of the deposited data

How the results depend on the processing

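The count of called genes was 0 in the main analysis, with an adjusted p threshold of 0.05, without the replicate block, with limma-voom, with RLE size factors, with library totals, with at least 10 counts in every library and without robust dispersions. It was 6 without a filter on low counts, 1 with all 18 libraries in 1 fit, and 2 in DESeq2's Wald and in its likelihood ratio test. Leaving out 1 batch gave 0 to 22. The 131 genes at an unadjusted p under 0.05 became 79 without the replicate block, 344 without a filter, 647 with all 18 libraries, 57 in DESeq2's Wald test, 50 in its likelihood ratio test, and 97 to 847 with 1 batch left out. EGFP passed the adjusted threshold in none of these settings, and its log2 fold change without the replicate block was -0.53. The adjusted p corrects over all genes tested, whereas EGFP was the intended target. Its unadjusted p in edgeR ran from 0.00133 with all 18 libraries to 0.213 without batch 1. Only the settings without batch 1 and without the replicate block (0.0535) gave EGFP an unadjusted p above 0.05. For EGFP at this stage, the paper reported a significant likelihood ratio test of injection beside batch. DESeq2's likelihood ratio test gave EGFP an unadjusted p of 0.0196 here. The paper also described fewer EGFP reads upstream of the expected cut site in injected embryos, and a peak of read ends at that site. The batch term called 56 genes, 1318 without a filter, 20 with at least 10 counts in every library, 26 at an adjusted p of 0.05, 180 in DESeq2's likelihood ratio test, and 21 to 2524 with 1 batch left out. The test of the difference between stages called 45 genes without a filter. Causes of these changes were not tested. EGFP, DDX4 and the other 22 leading genes kept their direction in all settings that tested them. With 1 batch left out, the medians of these lists took both signs: -0.25 to 0.40 for ribosomal proteins and -0.32 to 0.43 for the mitochondrial genome (lowest without batch 2), -0.26 (without batch 3) to 0.40 for the znf1000 series, -0.20 to 0.08 for declining maternal genes and -0.23 to 0.19 for oocyte genes (highest without batch 3). Depth limits low genes such as msx3 and hsp70.3 most, and with 3 batches the exact two-sided sign-flip test cannot go below 0.25.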
